A study of Drosophila melanogaster with 7 samples.

Results

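The 10 genes described here make up the fly's HIF (hypoxia-inducible factor) pathway and its classic transcriptional targets. They are sima and tgo, the subunits of the factor itself; Hph and Vhl, which remove the alpha subunit when oxygen is plentiful; and Ldh, Glut1, bnl, btl, scyl and chrb, genes known as targets of the pathway or as partners of a target. They were found by gene symbol in the table that pairs transcripts with genes, and all 10 matched, out of 24204 annotated features. Virgin females of Drosophila melanogaster had been kept in sealed cabinets at 10% oxygen (called hypoxia in the labels), 20% oxygen (normoxia) or 40% oxygen (hyperoxia), and midgut RNA was taken at day 53. All flies, controls included, were of the strain sg-Gal4,UAS-GFP, so every group carries the Gal4 driver and the GFP reporter, and the sources used here do not say in which cells the driver is active. There were 3 libraries at 10%, 3 at 20% and 1 at 40%. By the labels, replicates 1 and 2 at 10% and at 20% belong to batch 1, and replicate 3 of both groups and the 40% library belong to batch 2. The labels do not say whether replicates came from separate animals or cages, so the p-values below speak for the spread of these libraries alone, and that spread may be technical.

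In flies, Sima protein is made continuously, and in normal air Hph, a prolyl hydroxylase that uses oxygen as a substrate, marks it for recognition by Vhl, the substrate receptor of a ubiquitin ligase. When oxygen is short the mark is not added, Sima accumulates, pairs with Tgo and switches on genes for fermentation, sugar uptake, growth restraint and the outgrowth of tracheae, the tubes that bring air to the gut. Much of this control acts on Sima protein, which RNA sequencing does not measure.

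The libraries held 19.22 to 22.22 M counts each (M standing for mega), but transcripts of the mitochondrial genome took 61.0% to 71.0% of counts in batch 2, against 4.10% to 4.68% in batch 1. This left 5.73 to 7.49 M counts for nuclear genes in batch 2 and 20.64 to 21.22 M in batch 1. The enterocyte marker list, a check of the tissue label, summed to 6318 to 10200 counts per M (CPM) in batch 2 and 17560 to 18980 CPM in batch 1. All 5 markers were present in each library. Muscle markers summed to 7547 to 9210 CPM in batch 2 and 480 to 754 CPM in batch 1, and tracheal markers to 149 to 177 CPM in batch 2 and 15.4 to 21.3 CPM in batch 1. Levels called CPM below are scaled by TMM, an adjustment for library composition, and 3 counts, the detection floor, are 0.0827 to 0.332 CPM on that scale depending on the library. All 10 genes were above it everywhere, the lowest being bnl with 12 counts at 40% oxygen.

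Compared per length by the median over the 7 libraries, Hph and Ldh were the most abundant of the 10 genes in these guts and bnl and btl the least, though btl ranked higher in batch 2. On the scale of transcripts per M, or TPM, recomputed without mitochondrial transcripts, the median level over the 7 libraries was 58.9 TPM for Hph, 58.4 for Ldh, 27.7 for scyl, 12.7 for sima and 6.39 for Glut1. It was 5.72 TPM for Vhl, 3.03 for tgo, 2.18 for chrb, 1.64 for bnl and 1.26 for btl. The order was not the same in both batches: scyl ranked 3rd in each of the 7 libraries, while btl was 10th in some and 4th in another. Hph and Ldh overlapped in both batches, as did Glut1 and Vhl. Ldh overlapped scyl, sima overlapped Glut1 and tgo overlapped chrb in batch 2 only, and chrb overlapped bnl in batch 1 only. The remaining neighbours, scyl and sima, Vhl and tgo, and bnl and btl, did not overlap within either batch. The last pair changed places: bnl was above btl in batch 1 (1.6 to 2.4 against 0.92 to 1.3 TPM). In batch 2 bnl was below btl (0.23 to 1.1 against 4.3 to 6.1 TPM).

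**Figure D1:**
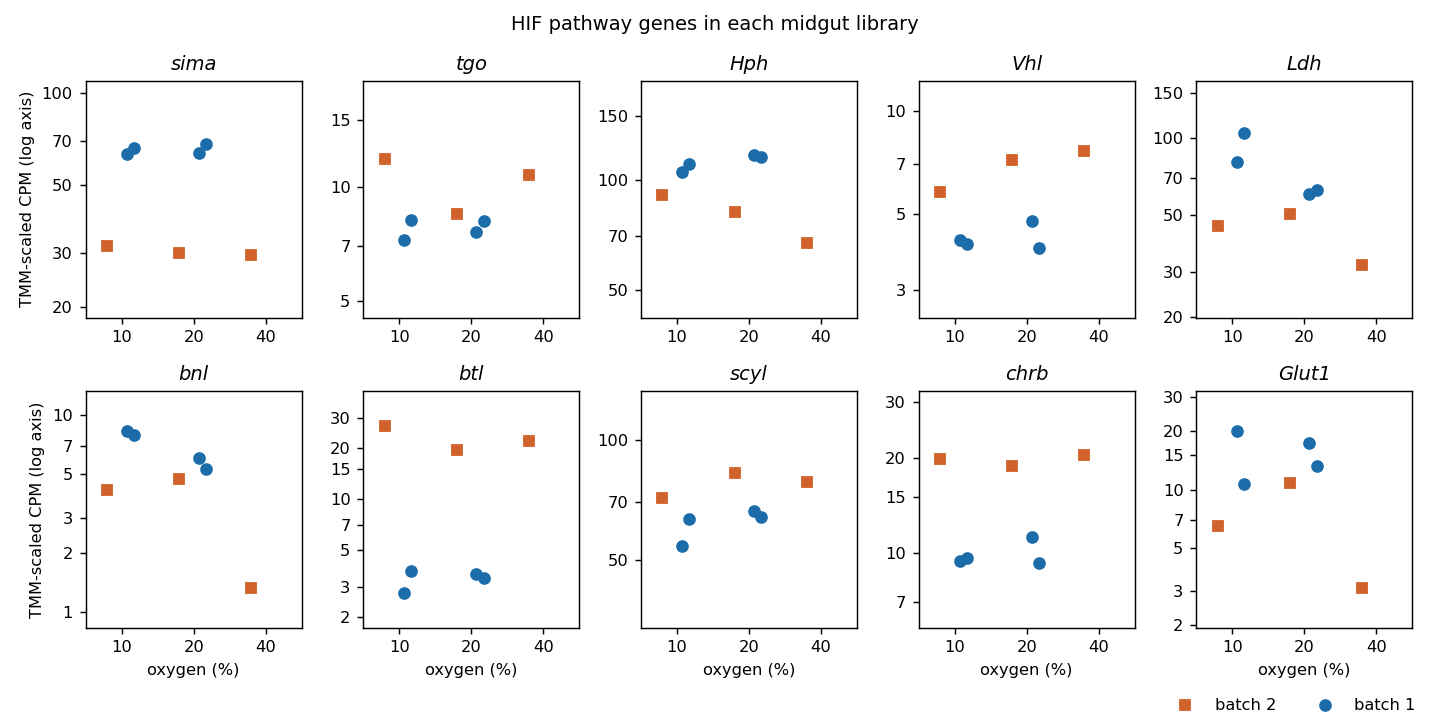
Level of each of the 10 genes in every library, with oxygen (%) on the x axis and TMM-scaled CPM on a log y axis; squares are batch 2, circles batch 1, 1 point per library. The distance between batches exceeds the distance between oxygen levels for sima, btl and chrb, and the 40% square is lowest for bnl (1.33 CPM) and Glut1 (3.10 CPM).

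At 10% oxygen none of the 10 genes passed the test against 20%. Log2 fold changes by edgeR's quasi-likelihood test with batch as a covariate lay between -0.21 and 0.35, with 5 above 0 and 5 below, and a median of -0.01 beside 0.01 over all features tested. Benjamini-Hochberg adjusted p over all 9278 features ranged from 0.799 to 0.999 in edgeR. The background gives this count its measure: edgeR called 0.0% of all features, and 6.29% had an unadjusted p below 0.05, where 0 of the 10 genes fell. DESeq2 also called 0 of the 10 and limma voom 0, beside 124 and 1 of all 9278 features, with 0 and 1 of the 10 under an unadjusted 0.05. Intervals in square brackets below are 95% intervals of a log2 fold change, not adjusted for the number of genes.

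The factor itself stood within narrow limits. The gene sima encodes the oxygen-regulated alpha subunit (chromosome 3R, 30058311 to 30121798, plus strand of assembly BDGP6.54, which holds for all coordinates here). It stood at 63.4, 66.4 and 31.6 CPM in replicates 1, 2 and 3 at 10% oxygen, against 63.6, 68.5 and 30.0 CPM at 20%. The difference was 0.01 log2 units (SE 0.07, [-0.17, 0.18], edgeR adjusted p = 0.999). In each group the low value was that of batch 2, and the oxygen groups interleaved. Its partner tgo, a subunit shared with several related factors (3R, 9016773 to 9020022, minus strand), was at 7.25, 8.17 and 11.8 CPM at 10% and 7.60, 8.13 and 8.49 CPM at 20%. The difference was 0.13 (SE 0.14, [-0.23, 0.50], edgeR adjusted p = 0.876). Batch 1 values overlapped, and in batch 2 the 10% library was the higher. At its end tgo shares 50 exon bases with CG11986 on the opposite strand. The kit keeps strand, per the labels, but whether the quantification used it is not stated, so reads of such pairs cannot be told apart here.

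The oxygen sensor and the ligase receptor did not pass either. Hph, the prolyl hydroxylase that senses oxygen and is itself known as a HIF target in flies (3R, 5257037 to 5269507, plus strand), stood at 105.5, 110.9 and 90.8 CPM at 10% against 117.0, 115.5 and 81.9 CPM at 20%. Both 10% libraries of batch 1 were below both 20% libraries, and the order was the other way round in batch 2. The fitted difference was -0.02 (SE 0.08, [-0.23, 0.18], edgeR adjusted p = 0.990). Hph shares 426 exon bases with the pseudogene CR45033 on the same strand, which itself stood at 0 to 1.24 CPM and was at 0 in all of batch 2. Vhl (2R, 11279725 to 11281033, plus strand) stood at 4.20, 4.08 and 5.78 CPM at 10% and 4.77, 4.0 and 7.20 CPM at 20%, a difference of -0.16 (SE 0.13, [-0.49, 0.18], edgeR adjusted p = 0.852). Values overlapped in batch 1, and in batch 2 the 10% library was the lower. Vhl shares 550 exon bases with CG9062 on the opposite strand, which stood at 12.9 to 15.9 CPM, above Vhl itself in every library.

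Ldh, lactate dehydrogenase, the enzyme that ends glycolysis in lactate and a standard marker of low oxygen in flies, had the highest fold change of the 10 at 10% oxygen, and it came from batch 1. Ldh (3L, 6259105 to 6262694, minus strand) stood at 80.8, 104.4 and 45.2 CPM at 10% oxygen against 60.3, 62.5 and 50.4 CPM at 20%. Both 10% libraries of batch 1 exceeded both 20% libraries, while in batch 2 the 10% library was the lower. The exact Poisson intervals of those batch 2 counts, which cover counting error only, overlapped. For Ldh they were 41.4 to 49.4 CPM at 10% and 46.4 to 54.7 CPM at 20%. The fitted difference was 0.35 (SE 0.19, [-0.14, 0.84], edgeR adjusted p = 0.802). It was 0.17 without replicate 2 at 10% and 0.59 without replicate 3 of either group, and did not pass in any of these fits. Glut1, a glucose transporter of the cell membrane (3L, 914074 to 993788, plus strand), stood at 20.1, 10.7 and 6.50 CPM at 10% against 17.3, 13.3 and 10.8 CPM at 20%. Its replicates within batch 1 differed more than its groups did, and the difference of -0.21 had the widest interval of the 10 genes (SE 0.31, [-0.99, 0.57], edgeR adjusted p = 0.917).

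The FGF pair of the tracheal system was likewise not called. The ligand bnl, secreted by tissues short of oxygen and drawing tracheal branches toward them (3R, 19794073 to 19836817, minus strand), stood at 8.29, 7.97 and 4.15 CPM at 10% and 6.03, 5.35 and 4.72 CPM at 20%. As for Ldh, the 10% libraries were above the 20% libraries in batch 1 and below in batch 2. Again the counting intervals overlapped in batch 2, at 3.04 to 5.54 CPM at 10% and 3.55 to 6.14 CPM at 20% for bnl. The fitted difference was 0.30 (SE 0.18, [-0.15, 0.76], edgeR adjusted p = 0.813). It was 0.18 without replicate 2 at 20%, 0.52 without replicate 3 at 10% and 0.51 without replicate 3 at 20%, and did not pass in any of these fits. Its receptor btl, made by the tracheal cells (3L, 14075772 to 14083229, plus strand), stood at 2.76, 3.71 and 27.0 CPM at 10% and 3.57, 3.42 and 19.4 CPM at 20%, a difference of 0.09 (SE 0.18, [-0.37, 0.56], edgeR adjusted p = 0.949). Its values in batch 2 were all above those in batch 1, while the oxygen groups overlapped within batch 1.

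The paralogs scyl and chrb encode the fly REDD proteins, which restrain growth by inhibiting the kinase complex TORC1. The level of scyl (3L, 11252307 to 11256172, plus strand) was 54.2, 63.6 and 71.6 CPM at 10% and 66.4, 64.2 and 82.9 CPM at 20%. It was the 1 gene of the 10 whose 10% libraries were below the 20% libraries of their own batch in both batches, which 8.84% of all features also were. None of the 10 was above in both batches, against 11.8% of all features. The difference for scyl was -0.17 (SE 0.08, [-0.38, 0.05], edgeR adjusted p = 0.799). The level of chrb (3L, 11487550 to 11499055, plus strand) was 9.44, 9.61 and 19.9 CPM at 10% and 11.2, 9.26 and 18.9 CPM at 20%, a difference of -0.05 (SE 0.11, [-0.31, 0.22], edgeR adjusted p = 0.963), with overlapping values in batch 1.

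**Figure D2:**
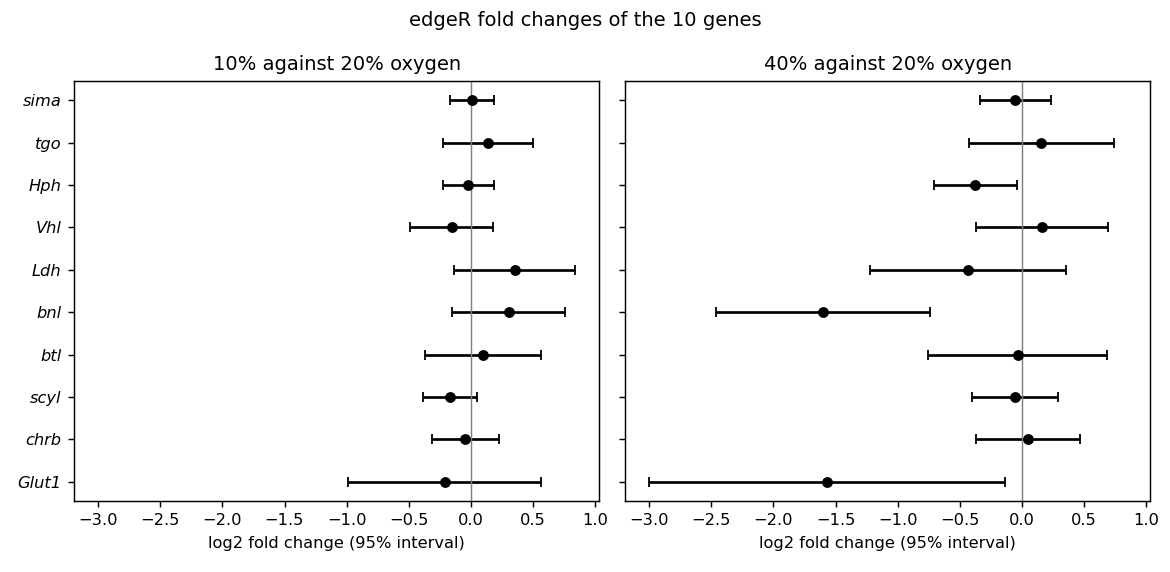
Log2 fold change of each of the 10 genes with its 95% interval (not adjusted for the number of genes) for the oxygen comparisons, from edgeR with batch as a covariate. At 10% against 20% oxygen every interval includes 0, and at 40% against 20% the intervals of bnl, Glut1 and Hph do not, with adjusted p of 0.0749, 0.202 and 0.193.

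Within batches, Ldh and bnl shared a pattern. In batch 1 the groups were separate with 10% higher for 2 of the 10 genes, Ldh and bnl, as for 18.8% of all features, and with 10% lower for 2, Hph and scyl, as for 20.4%. At 10% against 20% oxygen the log2 ratio of Ldh was -0.16 in batch 2 and 0.59 in batch 1, and that of bnl was -0.18 in batch 2 and 0.52 in batch 1. Separate groups in batch 1 with 10% higher, and the opposite order in batch 2, were found in 6.9% of all features. Hph had the mirrored order, at 0.15 in batch 2 and -0.10 in batch 1, as had 11.5% of all features. Tested as an interaction in edgeR, the batch difference of the oxygen effect was -0.75 for Ldh (SE 0.26, adjusted p = 0.473) and -0.70 for bnl (SE 0.24, adjusted p = 0.473), and edgeR called 0 of the 10 genes and 0.0% of all features. At an unadjusted p below 0.05 stood 2 of the 10 and 10.5% of all features. DESeq2 and limma voom also called 0 of the 10, beside 132 and 0 of all 9278 features. The counting intervals of the 10% and 20% libraries of batch 2 overlapped for Ldh, bnl and Hph. Batch 2 holds 1 library per oxygen level, so its ratios have no replicate of their own. The 10% and 20% libraries of batch 2 also differed in the fat body markers (934 against 625 CPM). In batch 1 replicate 2 at 10% stood apart in the tubule markers (19.2 CPM against 146 to 216 CPM in the other batch 1 libraries) and in the ovary markers (6.75 CPM against 34.0 to 88.4 CPM). Muscle markers summed to 503 and 480 CPM at 10% in batch 1 against 754 and 621 CPM at 20%, and to 9210 against 8513 CPM in batch 2. The part of such tissue differences in these ratios was not tested.

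At 40% oxygen bnl and Glut1 were at their lowest of all 7 libraries, but no gene of the 10 passed the test against 20%, where edgeR called 3.17% of all features (1.41% higher and 1.76% lower). The adjusted p of the 10 genes ranged from 0.0749 to 0.971 in edgeR, with 3 under an unadjusted 0.05, as were 21.0% of all features. DESeq2 and limma voom also called 0 of the 10, beside 972 and 237 of all 10068 features, with 3 and 1 of the 10 under an unadjusted 0.05. The 40% group is 1 library of batch 2, so the test takes its spread from the replicates of the other groups.

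The ligand gene bnl stood at 1.33 CPM at 40% oxygen, from 12 counts with an exact Poisson 95% interval of 0.686 to 2.32 CPM. In the other libraries of batch 2 it was at 4.72 CPM at 20% (3.55 to 6.14 CPM) and 4.15 CPM at 10% (3.04 to 5.54 CPM). The counting interval at 40% thus lay below both of these, which overlapped each other. These intervals and the floor cover counting error only. The log2 fold change was -1.60 against 20% (SE 0.34, [-2.46, -0.74], edgeR adjusted p = 0.0749), a level 0.330 times that at 20%, and -1.90 against 10% (SE 0.34, [-2.78, -1.02], edgeR adjusted p = 0.0742). Against 10% oxygen DESeq2 called it, with an adjusted p of 0.0139, while DESeq2, edgeR and limma gave adjusted p from 0.0139 to 0.592 over all alternatives tried.

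Glut1 stood at 3.10 CPM at 40% oxygen (28 counts, 2.06 to 4.47 CPM), against 10.8 CPM at 20% (9.0 to 12.9 CPM) and 6.50 CPM at 10% (5.09 to 8.19 CPM) in batch 2. Here too the counting interval at 40% lay below both others, but the spread between replicates of this gene was wide. The log2 fold change was -1.57 against 20% (SE 0.56, [-3.0, -0.14], edgeR adjusted p = 0.202) and -1.36 against 10% (SE 0.57, edgeR adjusted p = 0.286).

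Hph and Ldh were also lowest at 40%. Hph stood at 67.0 CPM at 40% oxygen (61.8 to 72.5 CPM by counting error), against 81.9 CPM at 20% and 90.8 CPM at 10% in batch 2. The log2 fold change was -0.38 against 20% (SE 0.13, [-0.71, -0.04], edgeR adjusted p = 0.193). Ldh stood at 31.7 CPM at 40% (28.2 to 35.6 CPM), against 50.4 CPM at 20% (46.4 to 54.7 CPM) and 45.2 CPM at 10%, with a log2 fold change of -0.44 against 20% (SE 0.31, [-1.22, 0.35], edgeR adjusted p = 0.504). With sima, at 29.6 CPM, these made 5 of the 10 genes lowest in the 40% library out of 7, as were 25.6% of all features. Highest there were 2 of the 10, Vhl at 7.63 CPM and chrb at 20.3 CPM, as were 24.5% of all features.

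For the others the intervals against 20% oxygen were [-0.34, 0.23] for sima, [-0.43, 0.74] for tgo at 10.7 CPM and [-0.37, 0.69] for Vhl. They were [-0.76, 0.69] for btl at 21.8 CPM, [-0.40, 0.29] for scyl at 78.7 CPM and [-0.37, 0.47] for chrb. Against 10% oxygen edgeR called 0 of the 10 and 1.16% of all features (0.447% higher and 0.715% lower), with 2 of the 10 and 19.7% of all features under an unadjusted 0.05. DESeq2 called 1 of the 10 and limma voom 0, beside 815 and 120 of all 10068 features. Both comparisons use the same 40% library and are not independent of each other.

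Markers of enterocytes, the absorptive cells of the gut, differed at 40% oxygen in both directions, and 1 of the 5 passed the test. Enterocyte markers summed to 6318 CPM at 40%, against 9899 CPM at 20% and 10200 CPM at 10% in batch 2, and Myo61F, a brush-border myosin of enterocytes, fell, at 233 CPM against 373 and 409 CPM (log2 fold change -0.71 against 20%, SE 0.11, edgeR adjusted p = 0.0483). It was the 1 called of the 5 enterocyte markers, none of which was at 0 in any library, and the call was lost in all 6 fits that left out 1 library, at -0.75 to -0.68. Most of the sum was betaTry, a trypsin, at 5356 CPM at 40% against 9008 CPM at 20% and 9269 CPM at 10% (-0.76, edgeR adjusted p = 0.0568). Other members of the list had values of the opposite sign: mex1, a brush-border gene, stood at 590 CPM at 40% against 382 and 391 CPM (0.67, edgeR adjusted p = 0.0752) and nub, an enterocyte transcription factor, at 65.9 CPM against 48.1 and 37.6 CPM (0.59, edgeR adjusted p = 0.141). DESeq2 called mex1, with an adjusted p of 0.00246, and its adjusted p ranged from 0.00246 to 0.568 over the alternatives in DESeq2, edgeR and limma. Tracheal markers summed to 176 CPM at 40%, against 149 CPM at 20% and 177 CPM at 10%. The part of these differences in the values of the 10 genes was not tested, and in bulk tissue fewer cells of a type and less RNA per cell cannot be told apart.

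Transcripts of Hph and sima differed in how they made up each gene's level. Shares of isoforms are the quantifier's estimates from sequence that they partly have in common, with no error estimate. Hph has 4 annotated transcripts from 2 start sites. Those from the downstream start, at 5264939, encode 278 and 325 codons, and those from the upstream start, at 5257037, encode 478. The downstream pair held 74.9%, 77.1% and 81.7% of the gene's TPM in replicates 1, 2 and 3 at 10%, 73.2%, 74.2% and 83.1% at 20%, and 79.9% at 40%. The share was higher in all 3 libraries of batch 2 than in any of batch 1. Most of it was FBtr0334275, a transcript of 2337 bases, with 66.3% to 76.2% of the gene's TPM in every library.

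The isoforms of sima split differently. FBtr0344376, the transcript with the longest reading frame (1593 codons), held 36.2%, 44.0% and 17.5% of the gene's TPM at 10% oxygen, 37.8%, 39.2% and 15.0% at 20%, and 9.97% at 40%. It was lowest in the 3 libraries of batch 2. FBtr0344373, which starts downstream at 30099520 and encodes 869 codons, held 28.2%, 22.3% and 26.2% at 10%, 27.1%, 30.7% and 47.5% at 20%, and 53.2% at 40%. It was higher in the 20% and 40% libraries of batch 2 than elsewhere. The remaining pair, FBtr0344374 with 1507 codons and FBtr0344375 with 426, begin at the same base, 30058311. FBtr0344374 held 56.3% in batch 2 at 10% and was listed at 0 at 20% and 40%, where FBtr0344375 held 37.5% and 36.8%; in batch 1 FBtr0344374 held 27.3% to 35.1% and FBtr0344375 at most 2.90%. Neither of the pair has exon bases of its own within the gene, so this exchange rests on how shared reads were divided, with 78.3 to 102.7 estimated reads of FBtr0344375 in the libraries that list it highest.

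**Figure D3:**
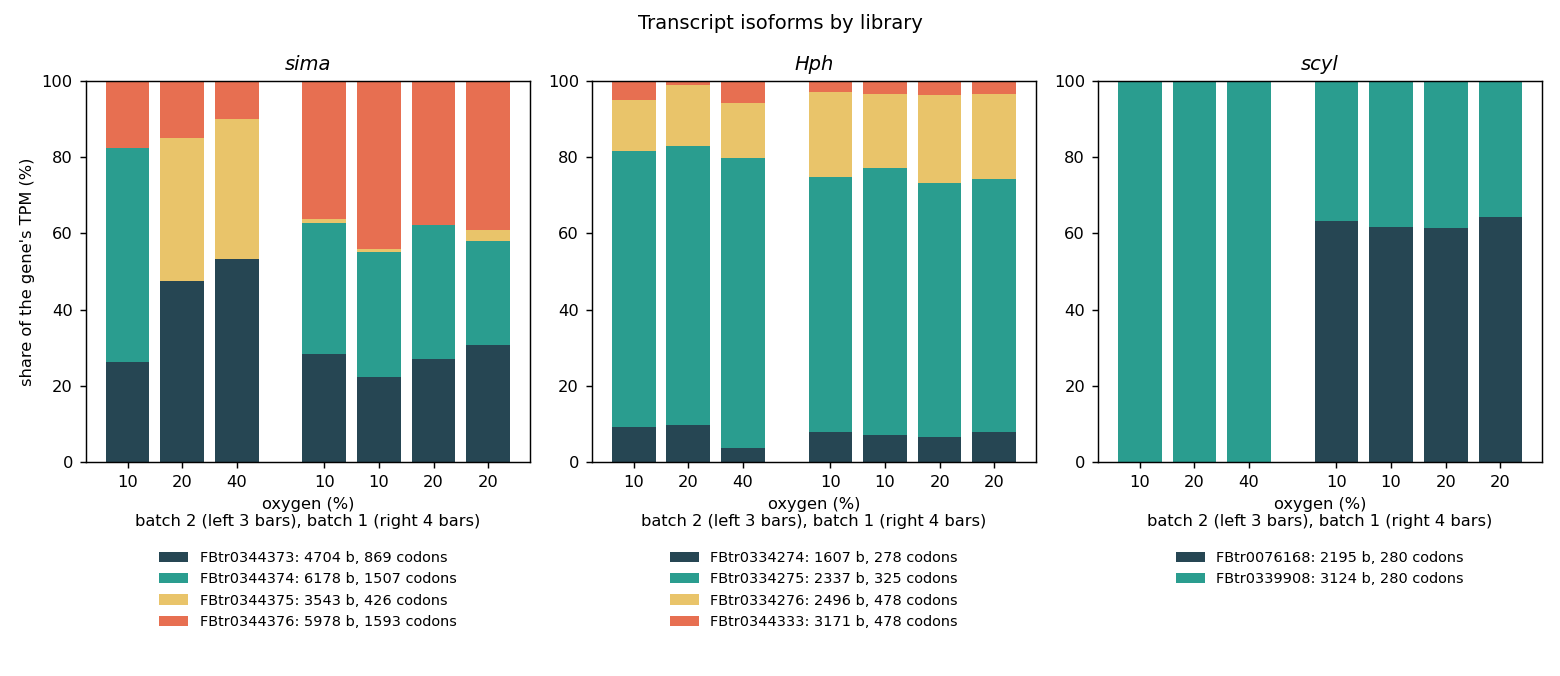
Share of the gene's TPM (%) held by each transcript of sima, Hph and scyl, 1 stacked bar per library labelled by oxygen (%), with batch 2 on the left and batch 1 on the right. FBtr0334275 makes up 66.3% to 76.2% of Hph in every bar, while the bars of sima differ between the batches and, within batch 2, between 10% oxygen and the other levels. FBtr0076168 of scyl is absent from the 3 bars of batch 2.

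Other members had less to divide. Of scyl, both transcripts encode 280 codons from the same start and differ by 929 bases that only the longer one, FBtr0339908, has. The shorter, FBtr0076168, has no exon bases of its own. It was listed at 0 in the 3 libraries of batch 2 and held 61.5% to 64.2% in batch 1. The estimated average length of a scyl transcript thus moved with the batch. Of tgo, FBtr0336755 held 25.9% and 31.7% in batch 1 at 20% and was listed at 0 in the other 5 libraries. Of Vhl, FBtr0088115 held 48.3%, 76.3% and 35.6% at 10%, 28.8%, 34.5% and 78.5% at 20% and the whole at 40%, with no order by oxygen or batch. Of Glut1, 8 of 20 transcripts were listed at 0 in every library, and transcripts starting at 959660 held 93.2% to 97.6% of its TPM.

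Several of the 10 genes differed between the batches. Between batch 2 and batch 1, over the 10% and 20% libraries with oxygen as a covariate, edgeR called 6 of the 10 genes, 4 higher and 2 lower, close to the 55.6% of all features it called (28.7% higher and 26.9% lower). At an unadjusted p below 0.05 stood 9 of the 10 and 61.2% of all features. DESeq2 called 9 of the 10 and limma voom 7, beside 5228 and 4785 of all 9278 features. The receptor btl rose most, by 2.79 log2 units (SE 0.19, edgeR adjusted p = 0.000273), to 27.0 and 19.4 CPM in batch 2 against 2.76 to 3.71 CPM in batch 1. It rose beside the tracheal markers, of which 7 of 8 tested were higher in batch 2 and none lower, with a median of 3.15, and beside the muscle markers, of which 8 of 9 were higher and 1 lower, with a median of 3.94. Fat body markers were higher for 4 of 4, haemocyte markers for 3 of 4 and neuron and glia markers for 3 of 4 with 1 lower. Medians were 1.99, 3.22 and 0.96. Enterocyte markers were higher for 1 of 5 and lower for 3 (median -0.87), and progenitor markers lower for 2 of 5. Enteroendocrine markers split at 2 higher and 2 lower of 7, ovary markers at 1 and 1 of 7, and 0 of 4 tubule markers were called. The part of these tissues in the levels of the 10 genes was not tested.

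Among the factor and its regulators, sima fell in batch 2 by 1.07 on the log2 scale (SE 0.08, edgeR adjusted p = 0.000347), to 30.0 and 31.6 CPM against 63.4 to 68.5 CPM in batch 1. Hph fell by 0.36 (SE 0.09, edgeR adjusted p = 0.0190) and Vhl rose by 0.62 (SE 0.14, edgeR adjusted p = 0.0145). Both TORC1 inhibitors rose, chrb by 0.99 (SE 0.11, edgeR adjusted p = 0.00127), to 18.9 and 19.9 CPM against 9.26 to 11.2 CPM, and scyl by 0.33 (SE 0.09, edgeR adjusted p = 0.0258). With transcript length as an offset scyl stood at 0.03 (edgeR adjusted p = 0.803, the highest of all alternatives) and is not called. On the TPM scale scyl was called in the opposite direction, at -1.38 (limma adjusted p = 0.000111). Without mitochondrial features on that scale it was also called lower, at -0.45 (limma adjusted p = 0.0272). The call of scyl was also lost in 5 of the 6 fits that left out 1 library, all but that without replicate 2 at 10%. Without replicate 3 at 20%, Hph stood at -0.24 and Vhl at 0.50 and neither passed, and Hph also missed the threshold without replicate 2 at 20% (-0.36). Values that missed the threshold in edgeR were 0.39 for tgo, -0.62 for Ldh, -0.59 for bnl and -0.83 for Glut1, with edgeR adjusted p from 0.0527 to 0.0919. These directions hold for TMM-scaled counts: on the TPM scale, where all features had a median of -1.26 in batch 2, Vhl, tgo, scyl and chrb lay below 0, and without mitochondrial features, where the median was -0.44, scyl stood at -0.45 and tgo at -0.10. Relative to that median scyl was at -0.01, btl at 2.36 and sima at -0.84. Batch here is the number in the labels, and what differed between the batches cannot be told apart from it.

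**Figure D4:**
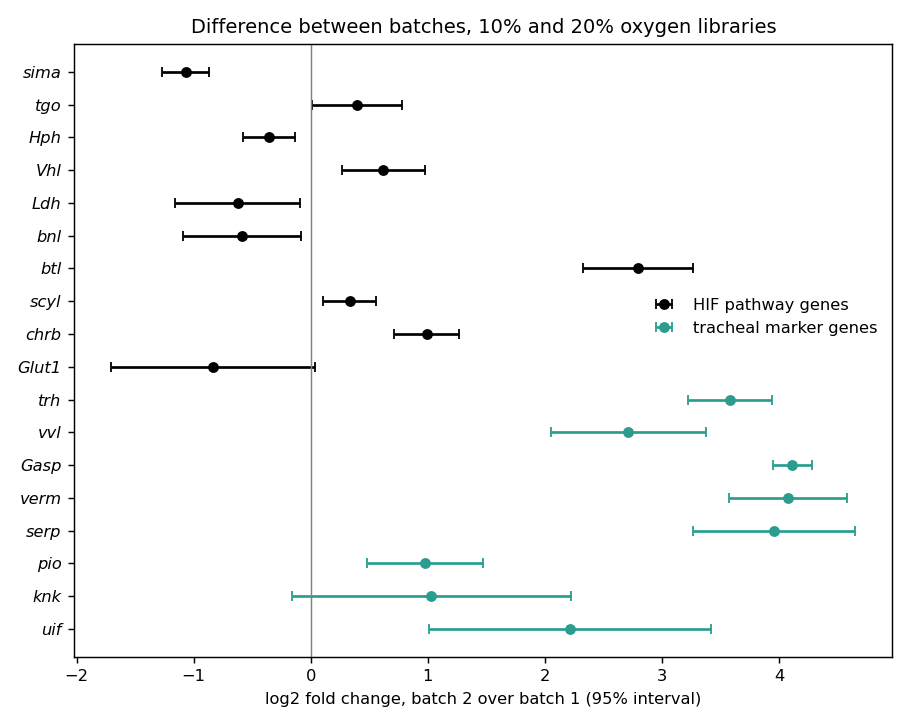
Log2 fold change of batch 2 against batch 1 with its 95% interval for each of the 10 genes (black) and the 8 tested tracheal markers (green), from the 6 libraries at 10% and 20% oxygen in edgeR. Of the 10 genes the highest is btl at 2.79, beside a median of 3.15 for the tracheal markers, and the lowest sima at -1.07, with chrb (0.99), Vhl (0.62), scyl (0.33) and Hph (-0.36) also past the threshold.

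The genes around the 10 showed as little at 10% oxygen. Of 9 tested genes of the VHL ligase and of known HIF regulators, edgeR called 0, with a median log2 fold change of -0.04. The smallest p belonged to Cdk4, a cyclin-dependent kinase, at -0.48 and Hsp83, the fly Hsp90 chaperone, at -0.28. Of the 4 other partners of Tgo only trh, the tracheal selector gene, was tested, at 0.12. Of 8 tested genes of FGF signalling 0 were called and 7 lay above 0, as did 4838 of all 9278 features, with a list median of 0.10. In this list pnt, a transcription factor downstream of the receptors, stood at 0.18 and drk, an adaptor, at 0.11. Of 11 tested genes of the TORC1 pathway 0 were called (median 0.03), with mTor, the kinase, at 0.25 and Tsc1, its inhibitor, at 0.16. Of 14 tested genes of glycolysis and sugar transport 0 were called (median -0.04), with Hex-A, a hexokinase, at 0.20 and Tpi, triose phosphate isomerase, at -0.16. Of 6 tested other low-oxygen genes 0 were called (median 0.05), with ERR, a nuclear receptor that regulates glycolytic genes, at -0.17 and BNIP3, a mitophagy receptor, at 0.28. None of these named genes passed, with edgeR adjusted p from 0.776 to 0.878.

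At 40% oxygen the 1 call in these lists was foxo, the transcription factor that insulin signalling restrains and that promotes stress resistance. It rose to 74.7 CPM at 40% oxygen, against 38.8 CPM at 20% and 35.7 CPM at 10% in batch 2, and against 29.2 to 32.4 CPM in batch 1. The log2 fold change was 1.02 against 20% (SE 0.12, edgeR adjusted p = 0.0363) and 0.99 against 10% (SE 0.12, edgeR adjusted p = 0.0435). The direction was the same in the fits that left out 1 library each, but the call was lost in all 6 of them, at 0.95 to 1.17 against 20%. It was also lost on the TPM scale (0.57 against 20%) and with no batch term (1.19), and against 10% with DESeq2 size factors (1.02) or without mitochondrial features (0.99).

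In the same list InR, the insulin receptor, stood at 21.1 CPM at 40% against 11.3 CPM at 20% and 9.39 CPM at 10% in batch 2 (1.07, SE 0.21, edgeR adjusted p = 0.0694). Sesn, a sestrin, stood at 7.08 CPM against 30.4 and 19.9 CPM (-1.90, SE 0.46, edgeR adjusted p = 0.0961). Neither passed in edgeR, while DESeq2 called both and limma on the TPM scales called Sesn. Both were named after their values were seen.

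The other lists had 0 calls against 20%. Medians were -0.04 for the 9 VHL ligase and regulator genes, 0.20 for the 9 FGF genes, -0.09 for the 11 TORC1 genes with foxo, -0.17 for the 15 glycolysis genes and -0.04 for the 6 other low-oxygen genes, beside -0.03 over all features. The smallest p in each of the lists with no call belonged to Roc1a, a ring protein of cullin ligases, at -0.38, CycD, a cyclin, at 0.61, ths, an FGF ligand of the receptor Htl, at -2.18 (SE 1.1) and csw, a phosphatase of the pathway, at 0.32. Tpi stood at -0.53, Gapdh1, glyceraldehyde phosphate dehydrogenase, at -0.28, ERR at -0.36 and hry, a repressor, at 0.44. None passed in the main edgeR fit, with edgeR adjusted p from 0.0938 to 0.374. Over the alternatives in DESeq2, edgeR and limma the lowest adjusted p was 0.0157 for Roc1a, 0.0160 for Tpi, 0.0373 for ERR and 0.0430 for Gapdh1. It stayed above 0.05 for CycD, ths, csw and hry. Of the Tgo partners trh stood at 0.36 and sim, a midline selector gene, at -0.48 with an SE of 3.23.

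Between the batches, these lists moved in both directions like the 10 genes. Rose and fell mean here an edgeR adjusted p below 0.05, and values are log2 fold changes. In batch 2 trh (3.58) rose, as did the FGF receptor htl (3.6), the FGF adaptor stumps (4.04), bs (0.78) and drk (0.34), while pnt fell (-0.74). Of 8 tested FGF genes 4 were thus higher and 1 lower. For all the list counts between batches the background is the 55.6% of all features that edgeR called (28.7% higher and 26.9% lower). Of the VHL ligase and regulators EloC, elongin C, rose (0.50), and Cul2, the cullin of the ligase (-0.50), nej, the coactivator CBP (-1.57), and the kinase Akt (-0.50) fell, 1 higher and 3 lower of 9. In the TORC1 list Rheb, its activator, rose (0.66) with foxo (0.29), and Tsc1 (-0.53), its partner gig (-0.94), mTor (-0.91), raptor (-1.23) and S6k (-0.39) fell, 2 higher and 5 lower of 11. Glycolysis genes split between Pgk (0.39), PyK (0.35) and Pfk (0.31), which rose, and Hex-A (-0.40) and Ald1 (-0.33), which fell, 3 higher and 2 lower of 14. Of the other low-oxygen genes glob1, a globin (2.23), PH4alphaEFB, a collagen prolyl hydroxylase (1.90), and BNIP3 (0.51) rose, and ERR fell (-0.92), 3 higher and 1 lower of 6. On the TPM scale EloC, bs, drk, Rheb, foxo, Pfk, Pgk, PyK and BNIP3 lay below 0.

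**Figure D5:**
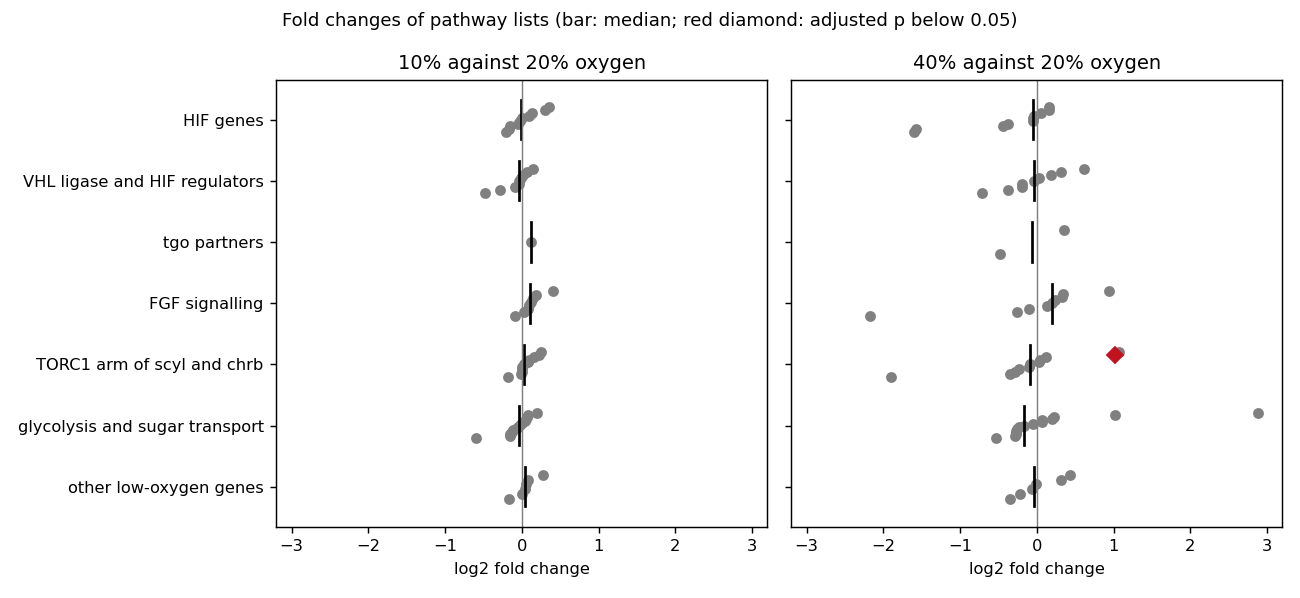
Log2 fold change of every tested gene of the 10 and of the 6 surrounding lists, 1 point per gene, for 10% against 20% and 40% against 20% oxygen in edgeR, with the list's median as a bar and called genes as red diamonds. Medians lie between -0.17 and 0.20 in both panels, and foxo at 40% oxygen (1.02) is the 1 red diamond.

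On the scale of log2(CPM + 0.5), the gene with the widest range across libraries after centring each batch was Glut1, with 1.65 log2 units, ahead of bnl with 1.51. This order depends on the added 0.5, which weighs more on low genes. Without it, the log2 ratio of 40% to 20% oxygen in batch 2 was -1.83 for bnl and -1.80 for Glut1. The 3 features nearest to the profile of Glut1 over the 7 libraries, by root mean square difference of batch-centred log2(CPM + 0.5), were Sesn (0.143), CG34457 (0.160) and CG11334 (0.162). Sesn stood at 39.9, 24.6 and 19.9 CPM at 10% oxygen, 36.5, 27.0 and 30.4 CPM at 20% and 7.08 CPM at 40%. CG34457 lay at 0 to 1.03 CPM, near or below the floor in some libraries. CG11334 stood at 39.8, 20.5 and 21.2 CPM at 10%, 32.7, 34.1 and 36.4 CPM at 20% and 13.5 CPM at 40%.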

How the data were processed

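RNA of 7 midgut libraries was sequenced as strand-specific mRNA libraries, per the labels. For each library the authors deposited transcript-level estimated (expected) counts, TPM and effective lengths, per the file headers, and for the series a table of the gene of each transcript. The submitters' processing notes list the tools STAR 2.7.11b and Salmon 1.10.3. Neither settings nor genome build were found, being not given in the sources used here. Lengths of all 41539 transcripts equal those of the Ensembl BDGP6.54 annotation, which supplied the coordinates.

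Gene counts are sums of the deposited expected counts over transcripts, rounded to whole numbers. The tests were edgeR 4.0.16 quasi-likelihood fits (R 4.3.3) with TMM scaling, filterByExpr by oxygen group and batch as covariate (oxygen for the comparison of batches), adjusted by Benjamini-Hochberg over all features that passed the filter (9278 for 10% against 20% oxygen and for the batches, 10068 for comparisons with 40%), with a threshold of 0.05. SE are those implied by the test statistic. All 10 genes passed the filter. The tests were checked on simulated data. Alternatives used limma 3.58.1, DESeq2 1.42.0, other scalings and filters, and each library left out. All tests were two-sided. A fold change on the TPM scale is of log2(TPM + 0.5) and understates low genes.

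The 10 genes, the 6 surrounding lists and the 10 marker lists were chosen with earlier results of these data known. Of the lists, genes called in any comparison are named, otherwise those with the smallest p. Named too are the 3 features nearest in profile to the most variable of the 10 genes on the scale of log2(CPM + 0.5). Summed levels over the 7 libraries were 22.3 to 38.1 CPM for progenitor, 154 to 219 for enteroendocrine, 6.75 to 88.4 for ovary, 19.2 to 216 for tubule, 99.6 to 934 for fat body, 2.07 to 21.4 for haemocyte and 9.39 to 36.3 for neuron and glia markers.

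By the labels, libraries of the same number at 10% and 20% oxygen belong to the same batch. Across features, the correlation of their deviations from group means was 0.542, 0.567 and 0.819 for numbers 1, 2 and 3, and that of unlike numbers within batch 1 was 0.550 and 0.629. Promoter sequences were not analysed here, and 1 check of the counting of btl is not reported here.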

Additional observations from a re-analysis of the deposited data

How the results depend on the processing

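The limits are few libraries, 1 library at 40% oxygen, and batch 2 counts outside the mitochondrial genome of 5.73 to 7.49 M, which leave bnl at 12 counts. At 10% against 20% oxygen, 0 of the 10 genes were called under every alternative run. The replicate number as a block in place of batch also called 0 of the 10 and changed no other call of that comparison. Over all features DESeq2 called 124, limma voom 1, and limma on log2(TPM + 0.5) 3 there, or 4 without mitochondrial features, where edgeR called 0.

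Against 20% oxygen, 1 of the 10 was called at 40% on the TPM scale, with or without mitochondrial features (Hph, -0.82 and -0.76), and against 10% oxygen 1 on both TPM scales (Hph) and 1 by DESeq2 (bnl). Of all features DESeq2 called 815 of 10068 against 10%. On the TPM scale 1709 of 7727 were called against 20% and 1715 against 10%, and without mitochondrial features 958 of 8068 and 682. The median over all features on those scales was -0.39 and -0.35 against 20%, and relative to the second Hph stood at -0.40, bnl at -0.54, Glut1 at -1.20 and Ldh at -0.41. Calls over all features against 20% numbered 319 (44.5% higher) in edgeR, 972 by DESeq2, 1709 on the TPM scale (5.5% higher), 958 without mitochondrial features (9.19% higher), 1 with no batch term and 0 to 69 leaving out 1 library. Against 10% they numbered 117 (38.5% higher), 815 by DESeq2, 4 with DESeq2 size factors (2 higher and 2 lower), 193 with no filter (26.4% higher), 1715 on the TPM scale (3.03% higher), 682 without mitochondrial features (5.72% higher), 1 with no batch term and 0 to 56 leaving out 1 library. The batch difference of the oxygen effect gave 132 calls by DESeq2 and 0 in edgeR. Between batches 10 of the 10 genes were called on the TPM scale, where 9.05% of all calls were higher (26.1% without mitochondrial features) against 51.6% in edgeR, and 4 to 6 leaving out 1 library. Over all features 6840 of 7801 were called between batches on the TPM scale, and 5157 of 9278 in edgeR. The setting without mitochondrial features on the TPM scale, and the sum of Hph with its pseudogene in the test, were chosen after the data were seen. Summed with its pseudogene Hph stood at -0.37 between batches.

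The signs below turned without leaving out a library, and the cause was not tested. At 10% against 20% oxygen sima was at -0.00345 with no filter, -0.13 with a length offset, -0.11 and -0.16 on the TPM scales, -0.00694 with no batch term and -0.0238 in batch 1 alone, where tgo was at -0.0258, btl at -0.11 and Glut1 at 0.0129. At 40% against 20% a length offset gave sima 0.11 and Vhl -0.0949, and the TPM scales gave tgo -0.21 and -0.17, Vhl -0.46 and -0.42, chrb -0.31 and -0.29, csw -0.0864 and -0.0243 and, on the second, trh -0.00609. DESeq2 and voom gave btl 0.00205 and 0.00911, and no batch term gave btl 1.32 and scyl 0.15. At 40% against 10% a length offset gave sima 0.24, no filter tgo -0.0146 and no batch term btl 0.98. The TPM scales gave tgo -0.27 and -0.21, Vhl -0.27 and -0.19, scyl -0.29 and -0.18, chrb -0.25 and -0.19 in that comparison. All features had medians of -0.38 and -0.31 there. Relative to the second median tgo stood at 0.10, Vhl at 0.12, scyl at 0.13 and chrb at 0.11. Between batches the TPM scales gave tgo -0.87 and -0.0961, scyl -1.38 and -0.45, EloC -0.99 and -0.0357, bs -0.96 and -0.18, drk -1.29 and -0.38, foxo -0.99 and -0.0961, Pfk -1.05 and -0.15, Pgk -1.05 and -0.0909, PyK -1.08 and -0.12, and, on the first, Vhl -0.80, chrb -0.30, Rheb -0.77 and BNIP3 -0.90.

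Leaving out 1 library, the ranges that crossed 0 at 10% against 20% were -0.60 to 0.0103 for Glut1, -0.11 to 0.0227 for Hph, -0.11 to 0.26 for btl, -0.11 to 0.057 for chrb, -0.0268 to 0.0468 for sima and -0.0287 to 0.23 for tgo. At 40% against 20% they were -0.67 to 0.0829 for Ldh, -0.42 to 0.17 for btl, -0.0682 to 0.11 for chrb, -0.17 to 0.34 for tgo and -0.61 to 1.40 for sim. At 40% against 10% they were -0.31 to 0.28 for btl, -0.0918 to 0.00945 for sima and -0.14 to 0.37 for tgo. The range of foxo against 10% was 0.85 to 1.07.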
